A study of Mus musculus with 10 samples.

Results

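The genes of MHC antigen presentation were followed in 10 orthotopic pancreatic tumors of mice. The 33 genes were listed by symbol as the class I and class II chains, their peptide-loading machinery and their regulators, and all 33 were found by Ensembl identifier among the 55359 genes of the normalized-count table. KPC K8484 cells, a murine pancreatic ductal adenocarcinoma line whose alleles include Trp53 R172H/+ and Pdx1-Cre, were injected into the pancreas of immunocompetent C57BL/6J mice at 10 weeks of age. In both groups these were luciferase-expressing cells of a single line. The normoglycemic group drank regular water (n = 5 tumors, columns N1, N2, N4, N5 and N6), and the D30 group drank 30% dextrose water for 14 days to induce hyperglycemia (n = 5 tumors, columns T1, T2, T4, T5 and T7). Both sexes were used according to the methods, but the sex of the host was not given for single tumors.

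MHC class I molecules display peptides from inside the cell to CD8 T cells on nearly all nucleated cells. Each has a polymorphic heavy chain, such as H2-K1 or H2-D1, and the invariant light chain B2m. The TAP1/TAP2 transporter carries the peptides into the endoplasmic reticulum, where tapasin (Tapbp) loads them and Erap1 trims them. MHC class II molecules display peptides from endosomes to CD4 T cells, mostly on dendritic cells, macrophages and B cells. The invariant chain Cd74 escorts them, and H2-DM exchanges their peptides while H2-O restrains H2-DM. Ciita is the master transactivator of class II genes and Nlrc5 that of class I genes, and both act through the RFX complex (Rfx5, Rfxank and Rfxap) bound at the promoter.

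Promoter sequences are shown for the members on which the comparisons below turned, namely the pair of classical class I genes, of which 1 was called, and 3 class II genes. RefSeq (GRCm38.p6) held a promoter entry for 24 of the 33 genes. The 250 bases before each start were searched on both strands for motifs taken from the H2-K1 and H2-Eb1 sequences after these had been read, and a match is a description of the letters only. H2-K1 and H2-D1 both hold a kB site (GGGGATTCCCC) followed by an interferon-response element (AGTTTCNNTTC), both in capitals:
H2-K1 (chr17:34000429-34000458, minus strand, from 111 to 82 bases before the start): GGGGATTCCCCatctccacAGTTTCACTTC
H2-D1 (chr17:35262923-35262952, plus strand, from 171 to 142 bases before the start): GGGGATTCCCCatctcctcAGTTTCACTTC
These 30-base stretches differ at 1 base. GENCODE M21 annotates a longer H2-D1 transcript that reaches past this stretch. The kB letters were found in 3 of the 24 member windows (H2-K1, H2-D1 and H2-Q6) and in 0.0304% of all 32851 windows. The interferon-response letters were found in 6 member windows, all of class I heavy chains, and in 0.435% of all windows.

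In the class II promoters, the capitals mark the X1 box (AGNAACNNATG), the core of a cyclic AMP response element (TGACG on either strand) and the Y box (ATTGG on either strand), from 100 to 41 bases before the start:
H2-Eb1 (chr17:34305767-34305826, plus strand): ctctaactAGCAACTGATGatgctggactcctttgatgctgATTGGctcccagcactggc
H2-Ob (chr17:34238805-34238864, plus strand): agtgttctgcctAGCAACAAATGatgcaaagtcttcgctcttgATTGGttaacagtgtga
H2-Aa (chr17:34287864-34287923, minus strand): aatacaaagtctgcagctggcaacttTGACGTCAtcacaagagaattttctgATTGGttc
The X1 letters were found in 4 of 24 member windows (H2-Eb1, H2-DMb1, H2-Ob and Mr1) and in 0.715% of all windows. The Y box letters were found in 20 member windows and in 33.8% of all windows, and the cyclic AMP response core in 10 and in 17.8%.

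The deposited values are normalized counts, in which the authors had divided reads by a factor for each tumor. Recovered reads numbered 29915331 to 42122304 per normoglycemic tumor and 29192261 to 37126175 per D30 tumor. A pair of D30 tumors stood apart. T4 was the only tumor with reads of Y-linked genes (841, with 0 in the other 9 tumors, which allows up to 3 reads each), and T5 had the fewest detected genes, 20482 where the other 9 tumors had 23446 to 25912. The keratins Krt8, Krt18 and Krt19, which mark epithelial tumor cells, stood at 44920 to 179473 normalized counts in every tumor. Epcam, another epithelial marker, was low, with 15.9 to 191 normalized counts in normoglycemic and 0 to 62.5 in D30 tumors. The summed level of 7 epithelial markers was 209909 to 335527 normalized counts in normoglycemic and 341308 to 475874 in D30 tumors. That of 5 endothelial markers was 10082 to 16799 and 4115 to 8398, so that neither sum overlapped between the groups. The sums rested mostly on the keratins and on Cdh5 (7205 to 14529 in normoglycemic and 2480 to 6142 in D30 tumors). By single gene, 2 of 7 epithelial markers (28.6%) and 1 of 5 endothelial markers (20%) did not overlap, beside 6.19% of all genes. limma called no epithelial marker and 1 endothelial marker, Cdh5 (log2 fold change -1.45, adjusted p = 0.0117 from limma). DESeq2 called the keratins Krt18 (adjusted p = 0.0060) and Krt7 (adjusted p = 0.0067), and both were higher in every D30 tumor than in any normoglycemic tumor. The part of these cell types in the values below was not tested. In bulk tumors, fewer cells of a type and less RNA per cell cannot be told apart.

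Tests covered 24560 genes, those whose normalized counts averaged 1 or more, by limma on log2(normalized count + 1), with Benjamini-Hochberg adjustment, and a gene was called at an adjusted p under 0.05. All 33 members passed the filter. In D30 tumors 1 member rose, H2-D1, and none fell, so that 3.03% of the members were called beside 2.76% of all genes tested (1.4% higher and 1.36% lower). edgeR on the recovered reads also called H2-D1 alone, with 4.13% of all genes called, and DESeq2 called 3 members, with 5.71% of all genes called. An unadjusted p under 0.05 was seen for 8 members (24.2%, beside 17.3% of all genes), 5 of them higher (H2-D1, H2-T23, H2-DMb1, Rfxap and Ifi30, beside 7.79% of all genes) and 3 lower (H2-Ob, Nlrc5 and Cd1d1, beside 9.54%). The groups did not overlap for 3 members (9.09%, beside 6.19% of all genes). Of the 33 members, 17 were lower in D30 tumors (51.5%, beside 54.7% of all genes), and the median log2 fold change was -0.05, beside -0.06 over all genes. As a list, the members thus stood near all genes in direction and median, and the differences lay in single genes.

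**Figure D1:**
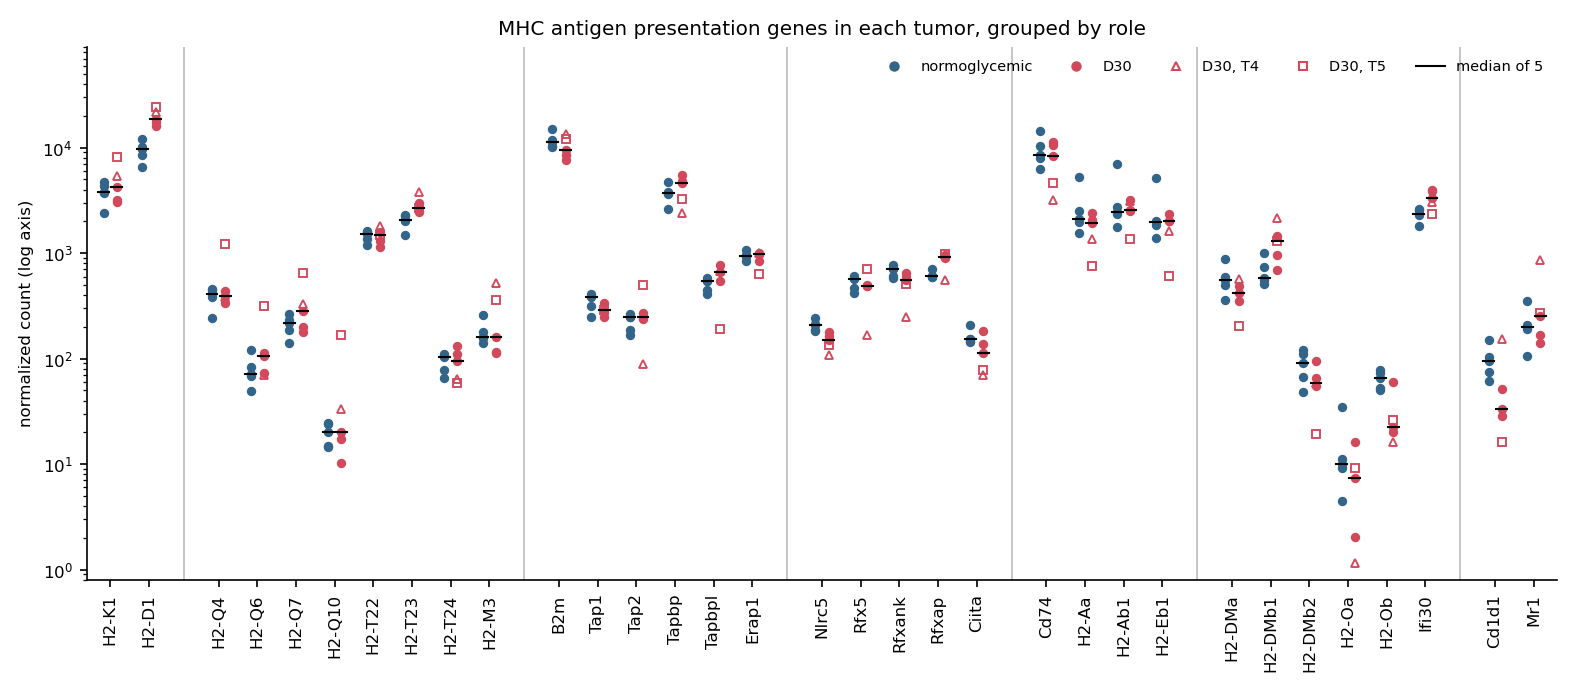
Normalized count of each of the 33 genes (log axis) in the 5 normoglycemic tumors (blue) and the 5 D30 tumors (red), with open symbols for T4 and T5 and a black line at the median of each group. H2-D1 of the D30 tumors lies between 16155 and 24432 and above every normoglycemic tumor, while most other genes overlap between the groups.

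**Figure D2:**
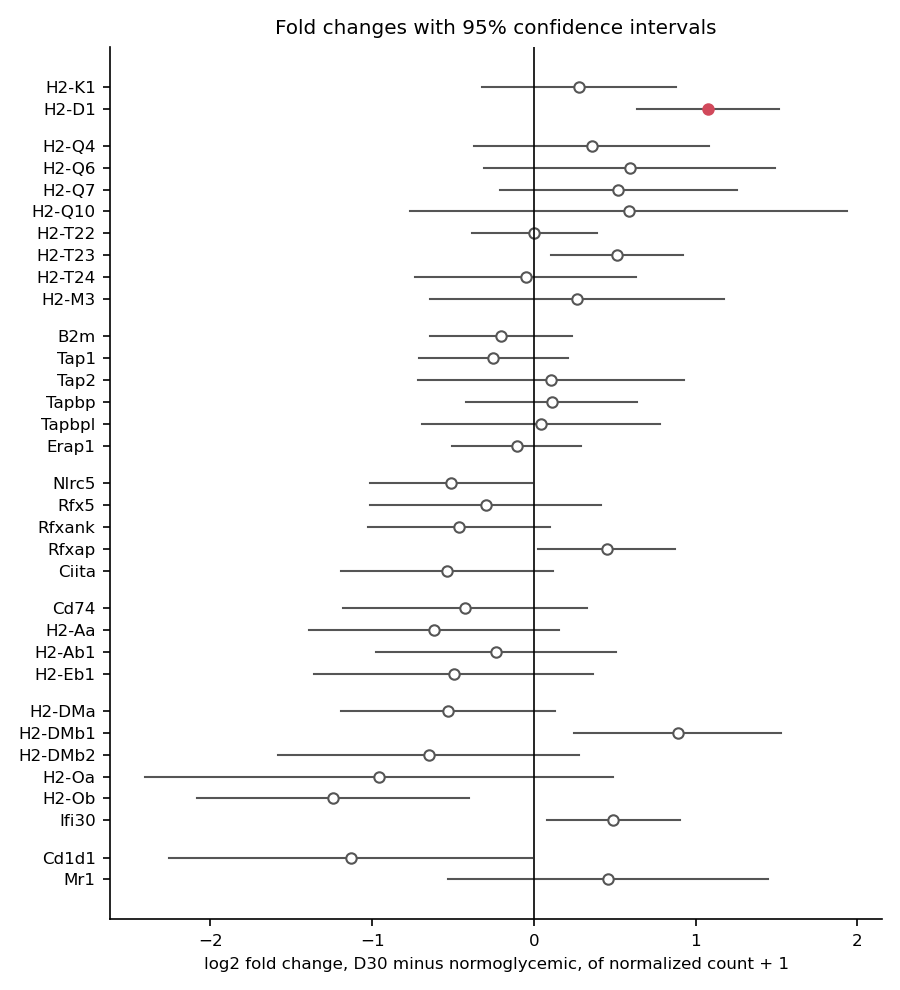
Log2 fold change of each gene, D30 minus normoglycemic, computed from log2(normalized count + 1), and its 95% confidence interval from limma as a line. The filled red point marks H2-D1, the only gene with an adjusted p under 0.05, at 1.08.

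H2-D1, a classical class I heavy chain (chromosome 17, 35262730 to 35267499, GRCm38), rose about 2-fold in D30 tumors. Its normalized counts were 10234, 8557, 12064, 6554 and 9753 in the normoglycemic tumors N1, N2, N4, N5 and N6, and 17439, 16155, 21802, 24432 and 18709 in the D30 tumors T1, T2, T4, T5 and T7. Every D30 tumor stood above every normoglycemic tumor, with T5 highest and N5 lowest. The group means were 9432 ± 2045 and 19707 ± 3372 (SD, n = 5 each), which gave a log2 fold change of 1.08 (95% confidence interval 0.63 to 1.52, adjusted p = 0.0141 from limma). With T4 and T5 left out it was 0.91 (adjusted p = 0.0081 from limma, in a fit that called 9.97% of all genes). Without the normoglycemic tumor N2 the adjusted p was 0.0552.

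H2-K1, the other classical heavy chain (chromosome 17, 33996017 to 34000347), showed no such separation. It had 4718, 3779, 4318, 2408 and 3676 normalized counts in the normoglycemic tumors and 3069, 3199, 5333, 8123 and 4209 in the D30 tumors. T5 was the highest tumor and N5 the lowest, and T1 and T2 lay below 4 of the 5 normoglycemic tumors. The log2 fold change was 0.28 (95% confidence interval -0.32 to 0.88, adjusted p = 0.658 from limma), and without T4 and T5 it was -0.09.

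The light chain B2m (chromosome 2, 122147686 to 122153083) had 14873, 11738, 11393, 10270 and 10054 normalized counts in normoglycemic tumors and 8474, 7718, 13609, 12008 and 9482 in D30 tumors. The groups overlapped, with N1 highest and T2 lowest (log2 fold change -0.20, 95% confidence interval -0.64 to 0.23, adjusted p = 0.657 from limma). B2m overlaps the annotated gene Patl2 on the other strand.

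Ratios of genes within a tumor do not depend on the scaling between tumors, and 10 such ratios were tested between the groups by exact permutation (two-sided, with adjustment over the 10). The ratio of H2-D1 to B2m was 0.688, 0.729, 1.06, 0.638 and 0.970 in normoglycemic tumors and 2.06, 2.09, 1.60, 2.03 and 1.97 in D30 tumors. Every D30 tumor was above every normoglycemic tumor, and the mean ratio was 0.817 ± 0.186 and 1.95 ± 0.201 (SD, n = 5 each, exact permutation p = 0.00794, the smallest that 5 tumors against 5 allow, adjusted p = 0.0397). The ratio of H2-K1 to H2-D1 was 0.461, 0.442, 0.358, 0.367 and 0.377 in normoglycemic and 0.176, 0.198, 0.245, 0.332 and 0.225 in D30 tumors. It was lower in every D30 tumor, with means of 0.401 ± 0.0469 and 0.235 ± 0.0603 (SD, n = 5 each, exact permutation p = 0.00794, adjusted p = 0.0397). H2-K1 was thus below H2-D1 in every tumor of both groups, and by more in D30 tumors, with T5 (0.332) close to N4 (0.358). Both ratios that passed contain H2-D1, so they are not independent. The ratio of H2-K1 to B2m was 0.324 ± 0.0566 and 0.458 ± 0.126 (SD, n = 5 each) and did not pass after adjustment (exact permutation p = 0.0238, adjusted p = 0.0794).

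**Figure D3:**
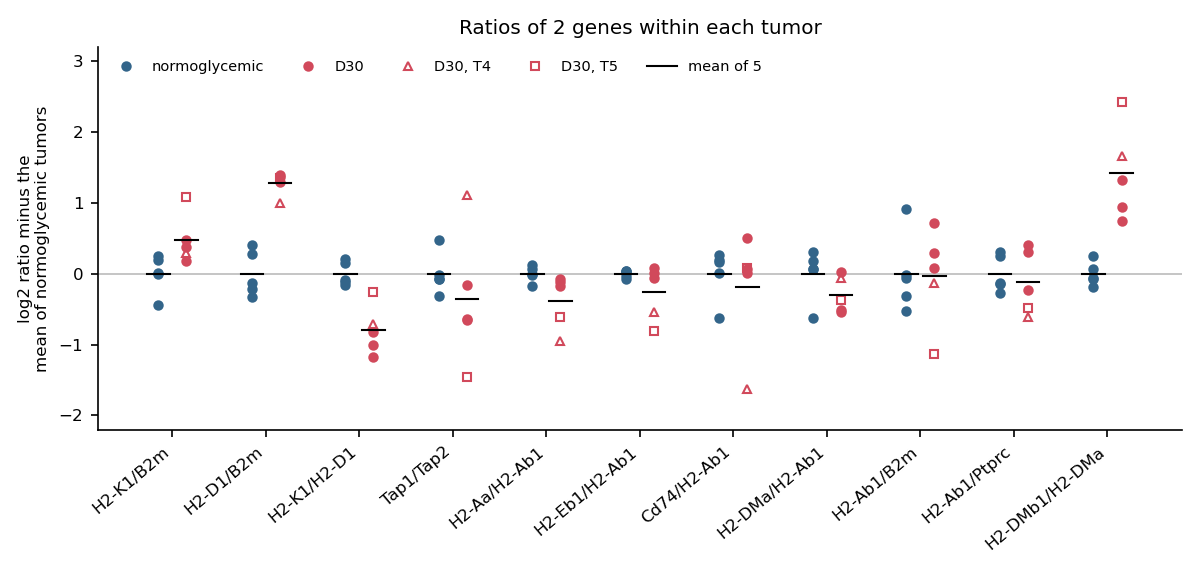
Log2 ratio of pairs of genes in each tumor, minus the mean of the normoglycemic tumors (blue), with D30 tumors in red, open symbols for T4 and T5, and black lines at the group means. The ratio of H2-D1 to B2m lies 1.28 higher and that of H2-K1 to H2-D1 0.80 lower on average in D30 tumors, without overlap, and H2-DMb1/H2-DMa was added after its values were seen.

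The 8 non-classical class I genes, relatives of the classical heavy chains with more limited polymorphism, were called in neither direction, 7 of them higher and 1 lower in D30 tumors. H2-T23, which encodes the Qa-1 molecule recognized by NK cell receptors, had 2301, 2043, 2235, 1491 and 2018 normalized counts in normoglycemic tumors. It had 2507, 2452, 3793, 2683 and 2993 in D30 tumors, each of which was above every normoglycemic tumor, as 2.87% of all genes were. Its log2 fold change was 0.51 (95% confidence interval 0.11 to 0.92, adjusted p = 0.178 from limma), so that it did not pass over all genes. For H2-Q4, H2-Q6, H2-Q7 and H2-Q10, T5 was the highest of all 10 tumors. H2-Q4, for example, stood at 1209 normalized counts in T5 and at 245 to 460 in the other 9 tumors. H2-Q10 stood at 166 normalized counts in T5 and at 10.3 to 33.5 in the others. Log2 fold changes of these 4 genes were 0.36 to 0.59, and without T4 and T5 they were -0.30 to 0.35. For H2-Q10 edgeR gave 1.34 and DESeq2 1.33 in place of 0.58. H2-M3, which presents formylated peptides, was highest in T4 with 526 normalized counts, where normoglycemic tumors had 140 to 258 (log2 fold change 0.27). H2-T22, a ligand of gamma delta T cells, had 1197 to 1613 normalized counts in normoglycemic and 1149 to 1809 in D30 tumors (log2 fold change 0.0024, 95% confidence interval -0.39 to 0.39), and H2-T24 had 65.0 to 111 and 58.4 to 132 (log2 fold change -0.05).

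As shares of the reads of the 10 class I heavy chain genes together, H2-D1 made up 50.8% to 56.6% in normoglycemic tumors and 61.9% to 69.3% in D30 tumors. H2-K1 made up 19.5% to 23.6% and 12.2% to 20.6%, with T5 alone among D30 tumors inside the normoglycemic range. H2-T22 made up 7.45% to 9.71% and 3.74% to 5.57%, without overlap. Its own normalized counts hardly differed (log2 fold change 0.0024), and a share also falls when another gene of the sum rises, as H2-D1 did. These shares describe the same reads as the values above and were not tested. Heavy chain genes are close paralogs, and reads that match several of them could be assigned to any of them or be left out in the counting. RSEM, which shares such reads out by estimation, is among the software the study lists, but its settings, and whether this table came from it, were not given in the sources used here.

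**Figure D4:**
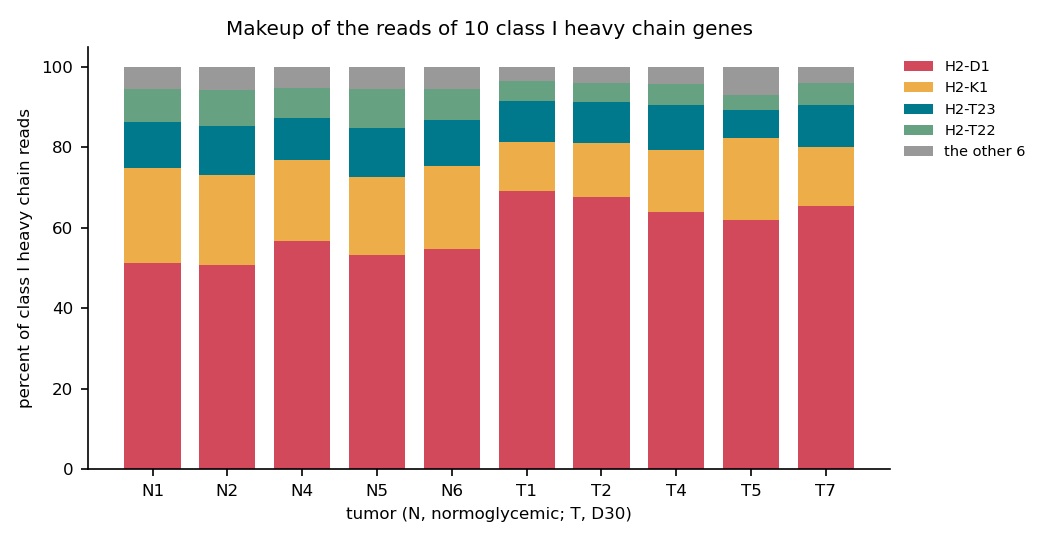
Percent of the reads of 10 class I heavy chain genes that fell on H2-D1, H2-K1, H2-T23, H2-T22 and the other 6 genes in each tumor, stacked to 100. H2-D1 takes at most 56.6% in normoglycemic tumors (N) and at least 61.9% in D30 tumors (T).

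The genes of peptide loading for class I did not pass the test in either direction. Tap1 had 248 to 406 normalized counts in normoglycemic and 250 to 333 in D30 tumors (log2 fold change -0.25, adjusted p = 0.595 from limma). Tap2 was 166 to 263 in normoglycemic tumors, with T4 at 89.1 and T5 at 503 as the lowest and the highest of the D30 tumors (log2 fold change 0.10). Tapbp was the most abundant loading gene per kilobase of exon, with 1020 normalized counts per kilobase in normoglycemic and 1129 in D30 tumors, and its log2 fold change was 0.11. Tapbpl, the tapasin-related editor TAPBPR, stood at 189 normalized counts in T5 and at 549 to 770 in the other D30 tumors (log2 fold change 0.04). Erap1 had 841 to 1065 and 633 to 1011 normalized counts (log2 fold change -0.11). Of these, Tap1, Tapbp, Tapbpl and Erap1 overlap the coding genes Psmb9, Zbtb22, Vamp1 and Cast. Zbtb22 lies on the same strand as Tapbp, so that counting by strand would not separate them, while the others lie on the opposite strand. Whether reads were counted by strand was not given in the sources used here.

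Levels per kilobase of exon were compared between genes on the annotation's merged exons. B2m was highest in both groups, with means of 13565 normalized counts per kilobase in normoglycemic and 11928 in D30 tumors. Cd74 followed in normoglycemic tumors with 5666 and H2-D1 came next with 3657, while in D30 tumors H2-D1 stood at 7641 and Cd74 at 4527. Ifi30 (2380 and 3376) and H2-K1 (1286 and 1629) came after these. The lowest were H2-Q10 (4.51) and H2-Oa (9.88) in normoglycemic tumors, and H2-Oa (5.10) and H2-Ob (5.39) in D30 tumors.

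Of the 5 regulators, 4 were lower and 1 was higher in D30 tumors and none passed the test. Nlrc5, the class I transactivator, had 209, 183, 243, 189 and 213 normalized counts in normoglycemic tumors and 177, 163, 108, 134 and 151 in D30 tumors. Every D30 tumor stood below every normoglycemic tumor, yet the gap between T1 and N2 was small, and the log2 fold change of -0.51 did not pass (95% confidence interval -1.01 to -0.01, adjusted p = 0.279 from limma). Among all genes, 3.32% were lower in D30 tumors without overlap. Ciita, the class II transactivator, had 208, 155, 148, 153 and 143 normalized counts in normoglycemic and 183, 139, 70.6, 77.8 and 114 in D30 tumors. N1 was highest and T4 and T5 were lowest (log2 fold change -0.54, adjusted p = 0.393 from limma).

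Rfx5, the DNA-binding subunit of the RFX complex, had 414, 602, 471, 586 and 572 normalized counts in normoglycemic and 483, 504, 168, 701 and 486 in D30 tumors. T4 was far below the rest and T5 was highest (log2 fold change -0.30, adjusted p = 0.692 from limma). Rfxank was also lowest in T4, with 248 normalized counts beside 515 to 773 in the other 9 tumors (log2 fold change -0.47). Rfxap was lowest in T4 as well, with 594 to 711 normalized counts in normoglycemic tumors and 906 to 979 in the D30 tumors other than T4, which had 562. Its log2 fold change was 0.45 (adjusted p = 0.263 from limma). Without T4 it was 0.60 (adjusted p = 0.0262 from limma, in a fit that called 6.43% of all genes). Ciita and Rfxank overlap the coding genes Dexi and Nr2c2ap, which lie on the other strand. All 5 D30 tumors had less Nlrc5 and more H2-D1 than any normoglycemic tumor.

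The class II chains and Cd74 were lower on average in D30 tumors for 4 of 4 genes, and none passed the test. H2-Ab1, the I-A beta chain, had 7019, 2366, 2714, 1778 and 2479 normalized counts in normoglycemic and 2590, 3178, 3104, 1371 and 2506 in D30 tumors. N1 stood far above all other tumors and T5 was lowest, and the groups overlapped otherwise. The log2 fold change was -0.24 (95% confidence interval -0.98 to 0.51, adjusted p = 0.777 from limma), and without N1 it was 0.09.

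H2-Aa, the I-A alpha chain, had 5223, 1968, 2499, 1565 and 2089 normalized counts in normoglycemic tumors and 2077, 2376, 1352, 759 and 1946 in D30 tumors (log2 fold change -0.62, adjusted p = 0.405 from limma). H2-Eb1, the I-E beta chain, had 5132, 1865, 2029, 1381 and 1956 and then 2005, 2346, 1639, 601 and 2027 (log2 fold change -0.50, adjusted p = 0.568 from limma). Both were highest in N1 and lowest in T5. Cd74 had 14392, 8592, 10311, 6315 and 7956 normalized counts in normoglycemic and 8296, 10591, 3186, 4623 and 11310 in D30 tumors, again highest in N1 but lowest in T4 (log2 fold change -0.43, adjusted p = 0.576 from limma). Without T4 and T5 the log2 fold changes of H2-Aa, H2-Eb1 and Cd74 were -0.19, -0.06 and 0.13.

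The chains kept close to each other within a tumor, except in T4 and T5. The ratio of H2-Eb1 to H2-Ab1 was 0.731 to 0.789 in normoglycemic tumors and 0.738 to 0.809 in T1, T2 and T7, but 0.528 in T4 and 0.438 in T5. The ratio of H2-Aa to H2-Ab1 was 0.744 to 0.921 in normoglycemic tumors and 0.748 to 0.802 in T1, T2 and T7, with 0.436 in T4 and 0.553 in T5 (exact permutation p = 0.0397, adjusted p = 0.0992). Ratios of Cd74, H2-DMa and H2-Eb1 to H2-Ab1, of H2-Ab1 to B2m and to Ptprc, and of Tap1 to Tap2 did not pass either (adjusted exact permutation p of 0.333 to 0.937).

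limma called none of the genes of H2-DM and H2-O. H2-DMb1, a beta chain of H2-DM, had 999, 586, 735, 505 and 561 normalized counts in normoglycemic and 694, 953, 2149, 1292 and 1450 in D30 tumors. T4, T7 and T5 were above every normoglycemic tumor, while T1 and T2 lay inside their range. The log2 fold change was 0.89 (95% confidence interval 0.25 to 1.53, adjusted p = 0.142 from limma). It passed with DESeq2 on the recovered reads (adjusted p = 0.0449), under which 5.71% of all genes were called, and not with edgeR (adjusted p = 0.101).

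H2-DMa, the partner alpha chain, had 360 to 877 normalized counts in normoglycemic and 204 to 573 in D30 tumors (log2 fold change -0.53, adjusted p = 0.405 from limma), and it overlaps the coding gene Brd2. H2-DMb2, the other beta chain, had 47.8 to 121 and 19.5 to 95.1 (log2 fold change -0.65). The ratio of H2-DMb1 to H2-DMa was 1.04 to 1.40 in normoglycemic tumors and 1.99, 2.27, 3.75, 6.34 and 2.96 in D30 tumors, without overlap. It was computed after the values had been seen and was not tested.

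H2-Ob, the beta chain of H2-O, had 77.8, 65.8, 50.3, 52.2 and 72.7 normalized counts in normoglycemic and 22.6, 59.6, 16.2, 26.3 and 20.2 in D30 tumors. The D30 tumor T2 lay inside the normoglycemic range and the other 4 below it. The log2 fold change of -1.24 was the lowest of the 33 members (95% confidence interval -2.08 to -0.40, adjusted p = 0.115 from limma). The adjusted p was 0.041 with DESeq2 and 0.131 with edgeR. It was 0.0496 from limma without T2, the tumor that lay inside the normoglycemic range, in a fit that called 482 of 24576 genes. H2-Ob was called in 2 of 19 alternative settings, with adjusted p of up to 0.27 among them. H2-Oa, its alpha chain, had few reads, 2 in T1 and 1 in T4, and 4.43 to 34.7 normalized counts in normoglycemic tumors, so that its log2 fold change of -0.96 was not told apart from 0 at this depth (95% confidence interval -2.40 to 0.49). Ifi30, the lysosomal thiol reductase GILT that opens disulfide bonds of antigens, had 1827 to 2648 normalized counts in normoglycemic and 2364 to 3976 in D30 tumors (log2 fold change 0.49, adjusted p = 0.2 from limma). Without T4 and T5 it was 0.68 (adjusted p = 0.0138 from limma), in a fit that called 9.97% of all genes.

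Of the class I-like molecules, Cd1d1 presents lipids to NKT cells and Mr1 presents vitamin B metabolites to MAIT cells. Cd1d1 had 61.1 to 150 normalized counts in normoglycemic tumors and 16.0 to 51.5 in the D30 tumors other than T4, which had 154, the highest of all. Its log2 fold change was -1.13 (adjusted p = 0.284 from limma), and -1.60 without T4 (adjusted p = 0.0288 from limma, in a fit that called 6.43% of all genes). It was -0.76 with edgeR (adjusted p = 0.475) and -0.78 with DESeq2 (adjusted p = 0.426). Mr1 had 105 to 349 normalized counts in normoglycemic tumors and 141 to 269 in the D30 tumors other than T4, which had 870 (log2 fold change 0.46, and 0.04 without T4).

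Class II genes are carried mainly by leukocytes in such tumors, and the markers of these cells were read beside them. Ptprc (CD45), carried by all leukocytes, was also highest in N1 with 1721 normalized counts and next in T4 with 1380, beside 554 to 886 in the other 8 tumors. Across the 10 tumors, log2 values of Ptprc and H2-Ab1 had a Pearson r of 0.81 (permutation p = 0.00273, adjusted over 3 relations 0.00819) and a Spearman rho of 0.60 (permutation p = 0.0727, adjusted 0.218). Without N1 and T4, the tumors farthest from the median of Ptprc, r was 0.53, so that the relation rested on those tumors. Among the regulators, only Ciita with H2-Ab1 and Nlrc5 with H2-K1 were tested over the 10 tumors, and neither relation passed. Other pairs, such as Nlrc5 with H2-D1, were not tested. For Ciita and H2-Ab1 r was 0.47 and rho 0.15 (permutation p = 0.182 and 0.681, adjusted over 3 relations 0.194 and 0.681). For Nlrc5 and H2-K1 r was -0.45 and rho -0.32 (permutation p = 0.194 and 0.368, adjusted over 3 relations 0.194 and 0.551). Without the tumors farthest from the median of the regulator, r was 0.58 for Ciita (without T4 and T5) and -0.52 for Nlrc5 (without N4 and T4).

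Of 10 macrophage and monocyte markers, 9 were lower in D30 tumors and limma called 1, Csf1r, the receptor for macrophage colony-stimulating factor (log2 fold change -1.06, adjusted p = 0.0449 from limma). DESeq2 called Csf1r (adjusted p = 0.0086) and Mrc1 (adjusted p = 0.0316), both lower. Adgre1 and Csf1r were lower without overlap between the groups (20% of the markers, beside 3.32% of all genes). The summed level of the 10 markers was 35251 to 69171 normalized counts in normoglycemic and 17946 to 80165 in D30 tumors, the highest of which was T4. In the D30 tumors other than T4 the sum was 17946 to 27713, below every normoglycemic tumor. Of 9 dendritic cell markers 8 were lower and limma called none (summed level 709 to 1116 and 532 to 1156), with Xcr1 and Clec9a at 0 reads in T5. DESeq2 called Cd209a, which had few counts, at most 15.8 in any tumor (adjusted p = 0.0457). Of 7 B cell markers 4 were lower and 3 higher and limma called none (175 to 402 and 261 to 591). DESeq2 called Pax5, a B cell transcription factor, which was higher, with 5.78 to 24 normalized counts in normoglycemic and 27.5 to 177 in D30 tumors (adjusted p = 0.0027). The 8 tested T and NK cell markers were all lower and limma called none (228 to 502 and 59.5 to 220 for the sum of 9). DESeq2 called Cd4, the helper T cell co-receptor, which had 41.1 to 72.6 normalized counts in normoglycemic and 12.6 to 33 in D30 tumors (adjusted p = 0.0097). The 6 neutrophil markers were all higher and neither limma nor DESeq2 called any (635 to 3129 and 749 to 15446, with T5 highest). The 3 markers of all leukocytes had log2 fold changes of -0.14 to -0.03 (3186 to 5225 and 3423 to 5161). Over the 74 genes of all marker lists, including epithelial and stromal ones, limma and edgeR each called 2 (Csf1r and Cdh5), which is 2.7% of the markers beside 2.76% and 4.13% of all genes. DESeq2 called 9 markers (12.2%, beside 5.71% of all genes), and 31 markers had an unadjusted p under 0.05 from limma (41.9%, beside 17.3% of all genes). The part of these cells in the class II values was not tested.

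**Figure D5:**
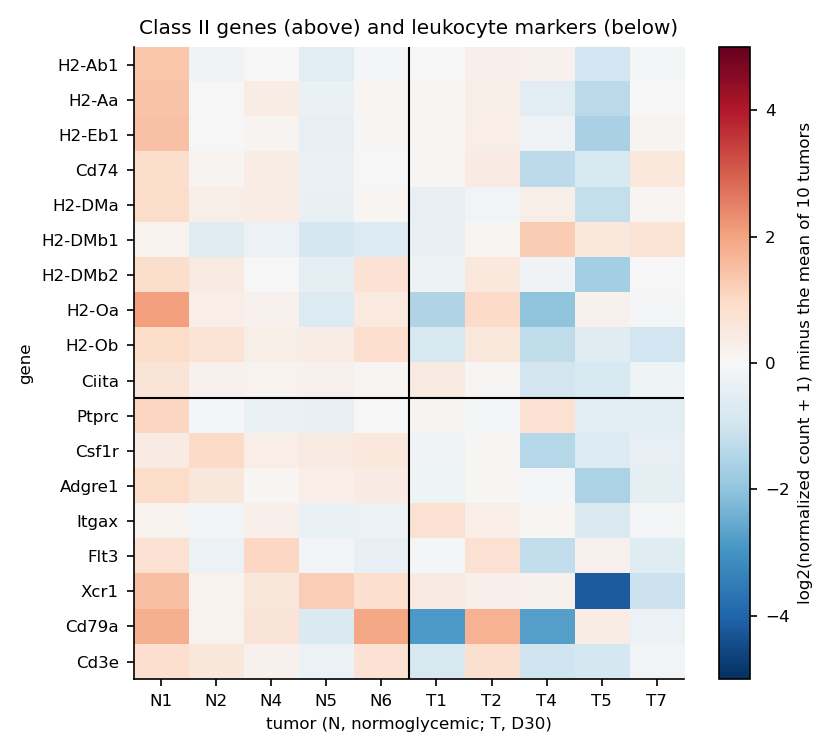
Log2(normalized count + 1) of class II genes and Ciita (above the line) and of leukocyte markers (below the line) in each tumor, as the difference from the mean of all 10 tumors, from blue (lower) to red (higher). N1 is high in most class II genes and in Ptprc, T5 is low in the class II chains, and H2-DMb1 departs from the others with its highest values in T4, T7 and T5.

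Other genes of the pathway were read from lists outside the 33 members, and limma called none of these 33 further genes, beside 2.76% of all genes. An unadjusted p under 0.05 was seen for 4 of them (Hspa5, Ctsb, March8 and Irf1, 12.1% beside 17.3% of all genes). edgeR called 0, beside 4.13% of all genes, and DESeq2 called 1, Hspa5 (3.03%, beside 5.71%). Of the 5 immunoproteasome and proteasome activator genes 3 were higher and 2 lower. Psmb8, an interferon-inducible catalytic subunit, had 203 to 443 normalized counts in normoglycemic and 213 to 621 in D30 tumors (log2 fold change -0.02), and Psmb9 had 137 to 425 and 76.7 to 419 (log2 fold change -0.35). Both were highest in N1 and T4. Of the 5 genes of class I folding in the endoplasmic reticulum 4 were higher, and the chaperone Hspa5 (BiP) had the smallest adjusted p, with 20089 to 32115 normalized counts in normoglycemic and 34332 to 52948 in D30 tumors (log2 fold change 0.78, adjusted p = 0.0704 from limma). Calreticulin (Calr), which holds the heavy chain in the loading complex, had a log2 fold change of 0.44 (adjusted p = 0.314 from limma).

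Interferon gamma is the main inducer of both classes. Ifng itself was near absent, with 0 to 1.83 normalized counts in 9 tumors and 17.3 in T4. Of the 10 genes of the interferon gamma pathway, 7 were higher and 3 lower. Irf1, a transcription factor that interferon gamma induces, had 1213 to 1721 normalized counts in normoglycemic and 1580 to 2613 in D30 tumors (log2 fold change 0.47, adjusted p = 0.218 from limma). Of the 7 endosomal proteases and genes of class II turnover 5 were lower, with the smallest adjusted p for the protease Ctsb (log2 fold change 0.46, adjusted p = 0.24 from limma). Of the 6 partners at the promoter (the NF-Y subunits, Creb1, Crebbp and Ep300) 5 were lower, with log2 fold changes of -0.35 to 0.16.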

How the data were processed

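RNA of 10 tumors was sequenced from strand-specific libraries, read in pairs on a NovaSeq. According to the methods and the submitters' processing notes, reads were trimmed with Trim Galore and aligned with STAR 2.7.0e. The notes name GRCm39 and the methods hg38, while the table lists mouse Ensembl identifiers. RSEM is named among the study's software. The counting settings were not given in the sources used here. For each gene the authors deposited a normalized signal of every tumor, of the kind DESeq2 writes, with size factors already applied. All values were whole multiples of the step of their column (100.0% within 0.01 reads), so that reads were recovered. The columns carry N or T and a number. N was taken as normoglycemic and T as D30, the only other group, and no column was tied to a single animal. The labels' titles call the tumors PDX, but their source names KPC K8484 cells.

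The 33 members and all lists were chosen with earlier results of these data known. Names and positions came from GENCODE M21 (GRCm38, 94.1% of identifiers matched without version) and promoters from RefSeq. limma 3.58.1 (R 4.3.3) with a mean-variance trend was run on log2(normalized count + 1) over genes with a mean of at least 1, with Benjamini-Hochberg adjustment over all 24560 genes. The pseudocount shrinks the fold changes of low genes. As alternatives, recovered reads were tested with edgeR 4.0.16 (quasi-likelihood) and DESeq2 1.42.0, along with other pseudocounts, filters and scalings and each tumor left out, and the fit without T4 and T5 was added after the data were seen. On recovered reads edgeR called 707 of 17127 genes (4.13%). Scripts were tested on simulated data. Ratios used exact permutation tests and correlations 100000 permutations. P values cover the spread between these tumors, each of which was labelled as a separate sample. Values in each tumor are given for members called by any tool, for those without overlap, and for H2-K1, B2m, the class II chains, Ciita, Nlrc5 and Rfx5. The others are given by range. H2-DMb1/H2-DMa and the tumors singled out were chosen after values were seen. Some items of the design and of the lists are not reported here.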

Additional observations from a re-analysis of the deposited data

Results flagged for a closer look

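In 10 of 66 groups of 5 tumors (33 genes in 2 groups each), the highest or lowest tumor lay so far from the rest that its gap to the nearest tumor, as a share of the range on the log2 scale, exceeded Dixon's 95% critical value for 5 samples. Chance flags about 1 in 20 groups, or 3.3 of 66, and genes of the same tumor are not independent. T5 accounted for 4 and T4 for 3 of the 10.

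In T5, the gap share was 0.786 for H2-Q4 (1209 normalized counts, the other D30 tumors 334 to 440), 0.759 for Tapbpl (189, the others 549 to 770), 0.718 for H2-Ab1 (1371, the others 2506 to 3178) and 0.737 for H2-Eb1 (601, the others 1639 to 2346). In T4, the gap share was 0.740 for Rfx5 (168, the others 483 to 701), 0.758 for Rfxank (248, the others 515 to 651) and 0.861 for Rfxap (562, the others 906 to 979), so that all 3 subunits of the RFX complex were lowest there. In normoglycemic tumors, it was 0.718 for H2-Q4 in N5 (245, the others 385 to 460), 0.856 for Rfxap in N4 (711, the others 594 to 610) and 0.790 for Ciita in N1 (208, the others 143 to 155).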

How the results depend on the processing

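Of the 33 members, 20 kept their direction under all 19 alternatives, and 27 were called under no setting. H2-D1 was called in 18 of the 19, with log2 fold changes of 0.85 to 1.17, and not without N2 (1.05). The number of members called was 1 in the main analysis, beside 2.76% of all genes. It was 3 with DESeq2 on recovered reads (H2-D1, H2-DMb1 and H2-Ob), beside 5.71% of all genes. Without T4 and T5 it was 4 (H2-D1, Rfxap, Cd1d1 and Ifi30), beside 9.97% of all genes. With each tumor left out it ranged from 0 (without N2, beside 279 of 24532 genes) to 3 (without T4, beside 6.43% of all genes). The number of all genes called moved from 678 to 1867 with DESeq2, 1573 without T4, 279 without N2 and 2418 without T4 and T5. Scaling by library size alone moved the median of all genes from -0.06 to -0.27, with 240 of 864 called genes higher where the main analysis had 344 of 678. Under it the direction turned for H2-T22 (-0.22), Tap2 (-0.12), Tapbp (-0.11) and Tapbpl (-0.18).

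Without T4 and T5, the direction turned for H2-K1 (-0.093), H2-Q10 (-0.30), H2-T22 (-0.11), H2-T24 (0.29), H2-M3 (-0.44), Cd74 (0.13) and Mr1 (-0.10). With each tumor left out, ranges that crossed 0 were -0.032 to 0.94 for H2-Q10, -0.077 to 0.086 for H2-T22, -0.20 to 0.091 for H2-T24, -0.064 to 0.49 for H2-M3, -0.17 to 0.45 for Tap2, -0.0098 to 0.29 for Tapbp, -0.10 to 0.40 for Tapbpl, -0.16 to 0.0091 for Erap1, -0.48 to 0.035 for Rfx5 and -0.41 to 0.086 for H2-Ab1. None of these members passed the test in any of the settings. The cause was not tested.

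With a tumor left out, exact tests of ratios have a smallest p of 0.0159, which passes adjustment over 10 ratios only where at least 4 of them reach it. The log2 difference stayed at 1.20 to 1.38 for H2-D1/B2m and at -0.93 to -0.70 for H2-K1/H2-D1, with adjusted p of up to 0.0794. It ranged from -0.46 to -0.24 for H2-Aa/H2-Ab1 and from -0.45 to -0.22 for H2-DMa/H2-Ab1, both of which passed without N1 (adjusted exact permutation p = 0.0397). It ranged from -0.36 to 0.17 for Cd74/H2-Ab1, from -0.22 to 0.24 for H2-Ab1/B2m and from -0.25 to 0.00 for H2-Ab1/Ptprc. The correlation of Ptprc and H2-Ab1 was 0.53 without N1 and T4. Correlations within groups were not computed with 5 tumors each. No paired analysis was possible because the numbers of the columns are not tied to the replicate numbers of the labels. H2-Oa, with 1 to 33 reads per tumor, was too low for the filter of edgeR.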

Other observations

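Markers of cells around the tumor were also read. Of 7 fibroblast markers all were lower in D30 tumors and limma called none, while DESeq2 called the collagen gene Col3a1 (log2 fold change -0.78, adjusted p = 0.0321), with a summed level of 76072 to 134615 normalized counts in normoglycemic and 26661 to 101977 in D30 tumors, lowest in T4. Of 6 pancreatic acinar markers 5 were lower and neither limma nor DESeq2 called any. Their sum was 24506 in N2 and 51019 in N6, and 144 to 4832 in the other 8 tumors. Of 5 adipocyte markers all were lower and neither called any, with a sum of 4348 in N4 and 276 to 995 in the other 9 tumors.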
